A study of Homo sapiens with 4 samples.

Results

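Chromatin is regulated by enzymes that methylate the DNA and by enzymes that add or remove methyl and acetyl groups on histones. The 55 genes described here encode such enzymes and their partners. They are DNA methyltransferases and TET dioxygenases, Polycomb proteins, histone lysine methyltransferases and demethylases, acetyltransferases and deacetylases, and subunits of SWI/SNF remodelers with a bromodomain reader. The list follows their known roles and uses no value of theirs, but it was drawn up when earlier results of these arrays were known. Each was taken from a probe set annotated to 1 gene symbol only, and from the probe set with the highest mean where a gene had several. In this way 47 of the 55 genes were measured, out of 14232 genes in all. NSD2, DOT1L, KDM5B, KDM6B and EP300 were annotated only together with other genes, and RNF2, SETD1A and ARID2 had no annotated probe set, so these 8 genes were not analysed here.

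DNA methylation is copied to the new strand after replication by DNMT1, which UHRF1 brings to hemimethylated sites, and it is set anew by DNMT3A and DNMT3B, while TET enzymes oxidize methylcytosine. Polycomb repressive complexes silence genes through methylation of histone H3 lysine 27 and ubiquitination of histone H2A, and they oppose the trithorax group methyltransferases and SWI/SNF remodelers. Histone acetylation by acetyltransferases such as CREBBP is found at active genes and is removed by the histone deacetylases and sirtuins.

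The cells were TE-1, an established line derived from an esophageal squamous cell carcinoma (ESCC). The question was how expression responded to silencing of FOXM1, a forkhead transcription factor of proliferating cells. The TE-1-siFOXM1 group (n = 2 arrays) received siRNA against FOXM1 and the TE-1-SCR group (n = 2 arrays) a scramble siRNA, both with a cationic lipid reagent. Both groups shared line, medium and transfection reagent, and the methods name 1 siRNA product against FOXM1 and no untransfected cells. Neither labels nor methods say whether replicates were separate cultures, so every interval and p-value reflects only how far these arrays lay apart, and that spread may be technical.

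FOXM1 expression was 8.28 and 8.06 on the TE-1-siFOXM1 arrays and 10.55 and 9.75 on the TE-1-SCR arrays, in log2 units. All levels below are log2 expression after robust multi-array average (RMA) normalization, given in the order replicate 1, replicate 2, and differences are TE-1-siFOXM1 minus TE-1-SCR on the log2 scale. The silenced arrays lay below both controls, with a difference of -1.98 and a 95% interval of -2.75 to -1.21 from limma. The difference was -2.27 between the replicates numbered 1 and -1.69 between those numbered 2. On average 25.3% of the control level of FOXM1 remained, so the silencing was partial. The adjusted p for FOXM1 was 1 by limma with Benjamini-Hochberg adjustment, and of the 22011 probe sets tested 0 passed 0.05 after adjustment (lowest adjusted p 0.709, with 680 probe sets at an unadjusted p under 0.05). An exact permutation test of 2 arrays against 2 cannot give a two-sided p below 0.333. The median of all probe sets lay between 7.54 and 7.63 on the 4 arrays, and arrays correlated with r between 0.984 and 0.992. The epithelial genes EPCAM and CDH1 were at 11.49 to 11.81 and 10.88 to 11.04, and the keratin KRT14 at 7.70 to 8.15. Of 5 leukocyte markers PTPRC (CD45) was at 3.50 to 3.74 and CD68, a lysosomal protein also made by other cells, at 11.08 to 11.30, and of 5 fibroblast markers LUM was at 3.03 to 3.24 and the collagens COL1A1 and COL1A2 at 7.70 to 7.92 and 7.35 to 7.69. Levels of different probe sets cannot be set against each other, so these values give no cell-type makeup. Only 3 of 7 squamous epithelial markers were measured, and none of the measured epithelial, fibroblast, leukocyte or endothelial markers was 1.5-fold apart between the groups. In cell extracts of this kind, fewer cells expressing a gene and less RNA per cell cannot be told apart.

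FOXM1 binds DNA through its forkhead domain, and it joins the MuvB proteins at CHR elements of cell-cycle genes. The promoter letters of these genes are therefore described here, ahead of their values in the text. Promoter windows from RefSeq (GRCh38.p14), 300 bases long with 250 before the transcription start, were held for 51 of the 55 genes, which had 91 windows. The forkhead words searched, on both strands, begin with A or G, go on with C or T, then AAA, then C or T, and end with A, as in GTAAACA. They occurred in 18 of the 91 windows (19.8%), against 24.3% of all 35116 windows in the table. The CHR word TTTGAA, also searched on both strands, occurred in 7 windows (7.69%), against 15.2% of all windows. No forkhead match overlapped a CHR match in these windows, and a match is only a description of letters. Both shares were below those of all promoters, and 4 windows are shown, chosen after the matches and values were known, with matched words in capitals and each window written 5′ to 3′ on the strand of the gene. KDM2B (chr12:121580197-121580496, minus strand) had the largest positive difference of the 47 genes, and the window shown, the 1 of its 4 windows with a match, carried a forkhead word 50 bases before the start. TET2 (chr4:105145625-105145924, plus strand, 1 of 2 windows) carried a forkhead word 2 bases before the start and 2 CHR words, and DNMT3B (chr20:32779602-32779901, plus strand) a forkhead word 11 bases after the start. EZH2 (chr7:148884242-148884541, minus strand) is shown beside them as the first of 2 windows, neither of which held a match. Forkhead words were found for 15 of the genes, with differences in both directions. Beside the genes shown, BRD2, EZH1, KDM4C, KDM5A, SIRT6 and SMARCA2 had positive differences. ARID1B, CBX5, HDAC4, NSD1 and PBRM1 had negative ones, and KDM6B was not measured. A link between words and differences was not tested.
KDM2B: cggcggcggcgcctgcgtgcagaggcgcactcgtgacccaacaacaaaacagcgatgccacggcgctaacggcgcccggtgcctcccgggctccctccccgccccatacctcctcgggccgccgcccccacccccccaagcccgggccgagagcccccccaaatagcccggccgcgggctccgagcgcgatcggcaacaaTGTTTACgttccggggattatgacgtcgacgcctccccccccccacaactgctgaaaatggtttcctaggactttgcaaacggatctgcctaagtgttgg
TET2: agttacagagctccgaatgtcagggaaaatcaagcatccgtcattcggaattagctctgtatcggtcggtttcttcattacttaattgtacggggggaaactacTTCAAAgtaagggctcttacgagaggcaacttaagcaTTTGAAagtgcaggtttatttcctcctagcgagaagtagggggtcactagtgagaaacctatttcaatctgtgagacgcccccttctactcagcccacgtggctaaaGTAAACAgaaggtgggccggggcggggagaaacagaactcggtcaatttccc
DNMT3B: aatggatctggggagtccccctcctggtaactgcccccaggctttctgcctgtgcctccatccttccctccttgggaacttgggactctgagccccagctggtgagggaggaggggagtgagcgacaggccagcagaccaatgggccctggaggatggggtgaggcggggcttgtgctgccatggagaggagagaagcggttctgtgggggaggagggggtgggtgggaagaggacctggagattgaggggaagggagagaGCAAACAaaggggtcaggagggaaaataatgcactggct
EZH2: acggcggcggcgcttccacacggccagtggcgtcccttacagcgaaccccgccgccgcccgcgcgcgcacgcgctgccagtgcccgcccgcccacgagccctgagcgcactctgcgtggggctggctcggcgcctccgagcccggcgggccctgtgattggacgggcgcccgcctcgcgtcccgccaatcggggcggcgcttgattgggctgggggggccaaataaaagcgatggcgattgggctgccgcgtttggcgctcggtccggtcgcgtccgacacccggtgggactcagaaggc

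None of the 47 genes was 1.5-fold higher after silencing of FOXM1, against 0.562% of all genes, and none was 1.5-fold lower, against 0.45% of all genes (1.01% in either direction). A 1.5-fold difference, the criterion of the study for these arrays, is 0.58 on the log2 scale. The differences ran from -0.33 for TET1 to 0.32 for KDM2B, and the larger of them was 1.26-fold. Of the 47 genes, 41 had a mean level at or above the median of all probe sets, 7.58. TET1, DNMT3B, BMI1, KDM4C, KAT2B and SMARCA2 lay below it, and a filter at that level left them out. Of the 47 genes, 23 had a higher mean after silencing (51% of all genes) and 24 a lower mean, with a median difference of -0.00, and the median over all genes was 0.00. The median size of the difference, without its sign, was 0.07 for these genes and 0.10 for all genes. By limma every one of the 47 had an adjusted p of 1, and none had an unadjusted p under 0.05, against 1.83% of all genes; the lowest unadjusted p was 0.0951, for KDM2B.

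A test that misses its threshold does not show that levels were alike, so the intervals are given as well. The standard error of the difference ran from 0.13 to 0.33 between genes, with a median of 0.16. For 30 of the 47 genes the 95% interval of the difference lay wholly within 1.5-fold of no change, against 60.9% of all genes, and for the other 17 it reached past 1.5-fold in at least 1 direction. The arrays of the groups did not overlap for 14 genes (27.3% of all genes did not overlap). Of these, 7 were higher after silencing (13.5% of all genes), namely DNMT3B, CBX2, KDM2B, KDM4C, KDM5A, SIRT6 and SMARCA2, and 7 were lower (13.8% of all genes), namely DNMT3A, EZH2, EED, KMT2A, KDM1A, KAT2B and HDAC1. The difference had the same sign between replicates numbered 1 and between replicates numbered 2 for 28 of 47 genes, against 57% of all genes.

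**Figure D1:**
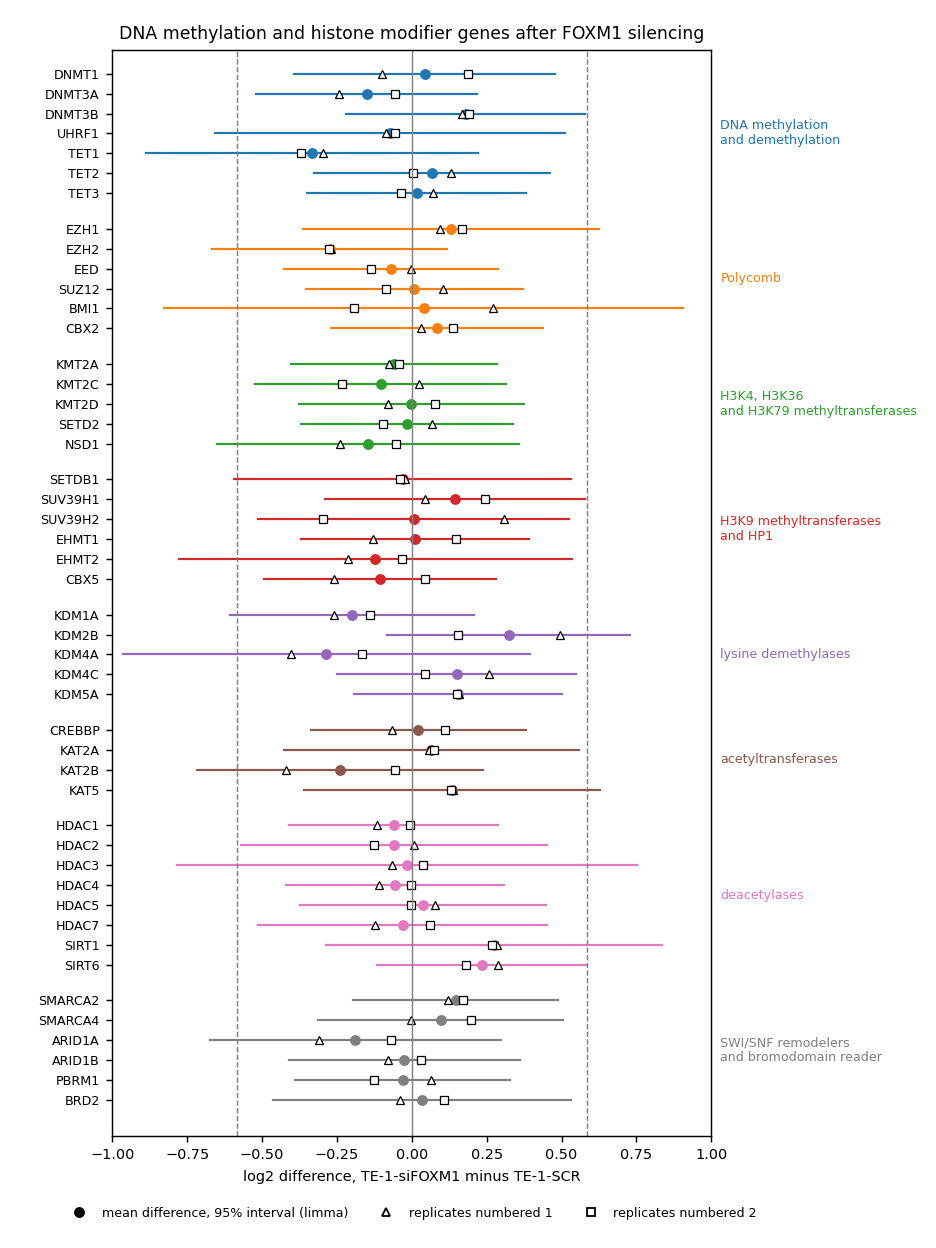
Log2 difference TE-1-siFOXM1 minus TE-1-SCR (x axis) for the 47 measured genes (y axis), grouped by role; filled points are the difference of means with its 95% limma interval, open triangles and squares the differences between replicates numbered 1 and 2, and dashed lines 1.5-fold. All 47 means lie between -0.33 and 0.32, inside the dashed lines.

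All 7 genes of DNA methylation and demethylation were measured, with a median difference of 0.02. DNMT1, the maintenance methyltransferase, was at 10.58 and 10.54 after silencing and at 10.68 and 10.36 in the controls. The silenced values lay between the control values, and the difference was 0.04 (95% interval -0.39 to 0.48). UHRF1, its partner at hemimethylated DNA, was at 9.11 and 8.72 against 9.20 and 8.78. Its replicates numbered 1 were high and those numbered 2 low in both groups, and the difference was -0.07 (95% interval -0.66 to 0.51). Both genes are commonly high in dividing cells, and at these intervals a 1.5-fold fall was outside the range for DNMT1 and within it for UHRF1. This contrast depended on the model. With the replicate number as a term in limma, the intervals were -0.32 to 0.41 for DNMT1 and -0.36 to 0.21 for UHRF1. A 1.5-fold fall was then outside the range for UHRF1 as well.

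The de novo methyltransferases differed in opposite directions. DNMT3B was at 7.53 and 7.37 after silencing and at 7.36 and 7.18 in the controls. Both silenced values were above both controls, although the lower silenced and the higher control value were less than 0.01 apart, and the difference was 0.18 (95% interval -0.22 to 0.58). DNMT3A was at 8.79 and 8.80 against 9.03 and 8.86. Its silenced values were below both controls, with a difference of -0.15 (95% interval -0.52 to 0.22). TET1, a dioxygenase that oxidizes methylcytosine, was at 6.78 and 6.37 against 7.08 and 6.75. It had the most negative difference of the 47 genes, -0.33 (95% interval -0.89 to 0.22), with -0.30 between replicates numbered 1 and -0.37 between those numbered 2. Silenced replicate 1 was above control replicate 2, so the groups overlapped. The mean level of TET1, 6.75, was below the median of all probe sets, 7.58. TET2, whose promoter letters are shown above, was at 7.73 and 7.51 against 7.60 and 7.51, and its difference was 0.07, beside 0.02 for TET3.

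Of 7 Polycomb genes 6 were measured, with a median difference of 0.02. EZH2, the catalytic subunit of Polycomb repressive complex PRC2 in dividing cells, was at 10.02 and 9.85 after silencing and at 10.29 and 10.13 in the controls. Both silenced values were below both controls, and the difference was -0.27 (95% interval -0.67 to 0.12), equal to 1.21-fold. It was -0.27 between replicates numbered 1 and -0.28 between replicates numbered 2. EZH1, the related subunit that prevails in resting cells, was at 7.94 and 7.67 against 7.85 and 7.51. The silenced value was the higher within each replicate number, but the groups overlapped, and the difference was 0.13 (95% interval -0.36 to 0.62). The other PRC2 core subunits EED and SUZ12 differed by -0.07 and 0.01, the latter by -0.00 after quantile normalization. BMI1, a subunit of Polycomb repressive complex PRC1, was at 7.33 and 6.46 against 7.06 and 6.65, and CBX2, a PRC1 chromodomain protein, differed by 0.08. BMI1 had the widest interval of the 47 genes, -0.83 to 0.91 around a difference of 0.04, and its silenced arrays lay on either side of the controls.

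The measured methyltransferases of histone H3 lysines 4 and 36 were 5 of the 8 genes listed for lysines 4, 36 and 79, and their differences were all negative and small, with a median of -0.06. Without TE-1-SCR replicate 2 only 2 of the 5 were negative and the median was 0.01, and without each of the other 3 arrays 4 of the 5 were negative. KMT2A, the trithorax homolog, differed by -0.06 with no overlap between groups, KMT2C by -0.10 and KMT2D by -0.00. SETD2, which trimethylates lysine 36, differed by -0.02, and the lysine 36 dimethyltransferase NSD1 by -0.15. The difference of KMT2D was 0.00 and positive when group means were taken on the linear scale.

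All 6 genes for methylation of H3 lysine 9 and its reader HP1 were measured, and their median difference was -0.01. SUV39H1, the heterochromatic lysine 9 methyltransferase, was at 8.43 and 8.33 after silencing and at 8.39 and 8.08 in the controls. Its groups overlapped, and the difference was 0.14 (95% interval -0.29 to 0.58). For its paralog SUV39H2 the differences between replicates numbered 1 and numbered 2 were 0.31 and -0.30, which left 0.01 on average. SUV39H2 differed by -0.02 and EHMT1 by -0.01 after quantile normalization. The methyltransferases SETDB1, EHMT1 and EHMT2 differed by -0.03, 0.01 and -0.12, and CBX5, which encodes HP1 alpha, by -0.11. None of the 6 genes had groups without overlap.

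The lysine demethylases had the widest differences of the 8 lists, with a median size of 0.20 over the 5 of 7 genes measured. For 4 of the 5 the groups did not overlap, against 27.3% of all genes. This did not extend to the 9 further lysine demethylases measured, part of the further genes below. Their median size was 0.10, as over all genes, and 2 of the 9 had no overlap. KDM2B, a demethylase of H3 lysine 36 that also brings a PRC1 complex to CpG islands, was at 8.02 and 7.77 after silencing and at 7.52 and 7.62 in the controls. Both silenced arrays were above both controls, with a difference of 0.32 (95% interval -0.08 to 0.73), equal to 1.25-fold, which was 0.49 between replicates numbered 1 and 0.15 between replicates numbered 2. KDM5A, a demethylase of H3 lysine 4, was at 7.93 and 7.87 against 7.77 and 7.72. Both groups were tight and did not overlap, and the difference was 0.15 (95% interval -0.19 to 0.50), close to that of the lysine 9 demethylase KDM4C, also 0.15. KDM1A (LSD1), a flavin-dependent lysine 4 demethylase, was at 10.94 and 10.81 against 11.20 and 10.95. Its silenced arrays were below both controls, and the difference was -0.20 (95% interval -0.61 to 0.21). KDM4A, the paralog of KDM4C, was at 8.42 and 8.05 against 8.83 and 8.22. Its groups overlapped because both replicates numbered 1 were high, and the difference was -0.29 (95% interval -0.96 to 0.39). Without TE-1-SCR replicate 2 it was -0.59, past the 1.5-fold criterion, and without TE-1-SCR replicate 1 it was 0.02.

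**Figure D2:**
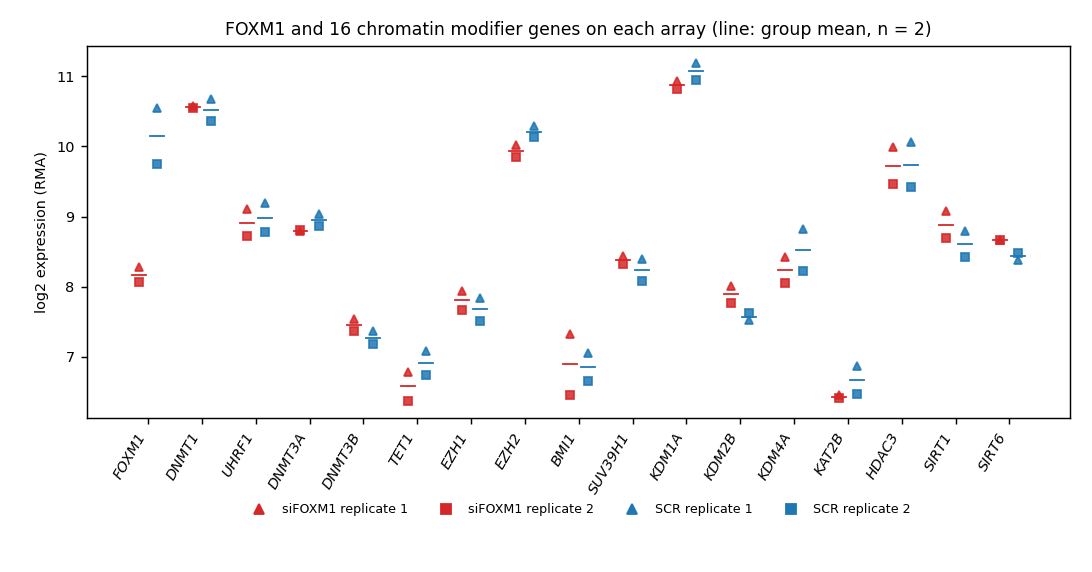
Log2 expression (y axis) of FOXM1 and 16 of the genes (x axis) on each array; red marks are TE-1-siFOXM1, blue marks TE-1-SCR, triangles replicates 1, squares replicates 2 and short lines group means (n = 2). FOXM1 is at 8.28 and 8.06 against 10.55 and 9.75, while the group means of every other gene lie less than 1.5-fold apart. Replicates of a group lie far apart for some genes, as for BMI1 at 7.33 and 6.46 after silencing. Levels of different genes come from different probe sets and are not comparable.

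Of 5 acetyltransferase genes 4 were measured, with a median difference of 0.04. KAT2B (PCAF) was at 6.45 and 6.41 after silencing and at 6.87 and 6.47 in the controls. Its silenced arrays were below both controls, mainly below control replicate 1, and the difference was -0.24 (95% interval -0.72 to 0.24). CREBBP, which acetylates H3 lysine 27, differed by 0.02, KAT2A (GCN5) by 0.07 and KAT5 (TIP60) by 0.13.

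The 8 deacetylase genes were all measured and had a median difference of -0.02. HDAC1, a catalytic subunit of several corepressor complexes, was at 11.38 and 11.40 after silencing and at 11.50 and 11.41 in the controls. The silenced arrays were below both controls by a narrow margin, and the difference was -0.06 (95% interval -0.41 to 0.29). SIRT1, an NAD-dependent deacetylase, was at 9.08 and 8.69 against 8.80 and 8.43. The groups overlapped because each replicate 1 was above its replicate 2, but the difference was 0.28 between replicates numbered 1 and 0.27 between replicates numbered 2, and 0.28 on average (95% interval -0.29 to 0.84). SIRT6, a sirtuin that deacetylates H3 at telomeres and sites of DNA repair, was at 8.67 and 8.66 against 8.38 and 8.48. Its silenced arrays were nearly equal and above both controls, and the difference was 0.23 (95% interval -0.12 to 0.59). HDAC2, HDAC4, HDAC5 and HDAC7 differed by -0.06, -0.06, 0.04 and -0.03. HDAC3, the deacetylase of the NCOR complexes, was at 9.99 and 9.46 against 10.06 and 9.43, a difference of -0.02 (95% interval -0.78 to 0.75). The replicates within each of its groups were much farther apart than the groups.

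Among the SWI/SNF subunits and the bromodomain reader, 6 of 7 genes were measured, with a median difference of 0.00. SMARCA2 (BRM), an ATPase of the complex, was at 5.47 and 5.50 after silencing and at 5.35 and 5.33 in the controls. Its arrays were tight in both groups and did not overlap, with a difference of 0.15 (95% interval -0.20 to 0.49). SMARCA4 (BRG1), the other ATPase, differed by 0.10 and ARID1A, a DNA-binding subunit often mutated in cancer, by -0.19, both with overlap. ARID1B, PBRM1 and BRD2 differed by -0.02, -0.03 and 0.03.

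The values of BMI1, HDAC3, KDM4A and UHRF1 above differed more between replicate numbers than between groups, so the replicates numbered 1 were also compared with those numbered 2, over both groups. The labels do not say what a number stands for. The 2 numbers hold both groups equally, so the sizes of the silencing differences above were free of a constant offset between them. Their standard errors, intervals, p-values and overlaps were not, because the main fit had no term for the number. For SIRT1 the standard error was 0.22 without that term and 0.10 with it. Of the 47 genes, 40 were higher in the replicates numbered 1, against 70.9% of all genes, with a median difference of 0.16 beside 0.10 over all genes. Both replicate 1 arrays were above both replicate 2 arrays for 23 genes (43% of all genes). For 3 of the 47 genes both were below, beside 1483 of all 14232 genes. BMI1 alone was 1.5-fold higher in the replicates numbered 1, by 0.64 (2.66% of all genes), followed by HDAC3 at 0.58, KDM4A at 0.49, EHMT2 at 0.47 and UHRF1 at 0.40. HDAC5 lay farthest in the other direction, at -0.19. The difference between replicate numbers exceeded that between groups in size for 30 of 47 genes, against 62.9% of all genes. By limma with the group as a term, 0 probe sets passed 0.05 after adjustment for the replicate number (lowest adjusted p 0.198). In the same test 12 of the 47 genes had an unadjusted p under 0.05, beside 2564 of all 14232 genes.

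This offset moved with the scaling of the arrays. When each array was centred on its own median, the median difference of the 47 genes between numbers was 0.08, 30 of 47 were higher in the replicates numbered 1, against 55.9% of all genes, and the median over all genes went from 0.10 to 0.03. After quantile normalization the median of the 47 genes was 0.0196, 25 of 47 were higher, against 53% of all genes, and the median over all genes was 0.01. The median difference between the silenced and control groups stayed between -0.02 and -0.00 under both scalings. Within replicate number 1 the median silencing difference of the 47 genes was -0.00 and within number 2 it was -0.00.

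**Figure D3:**
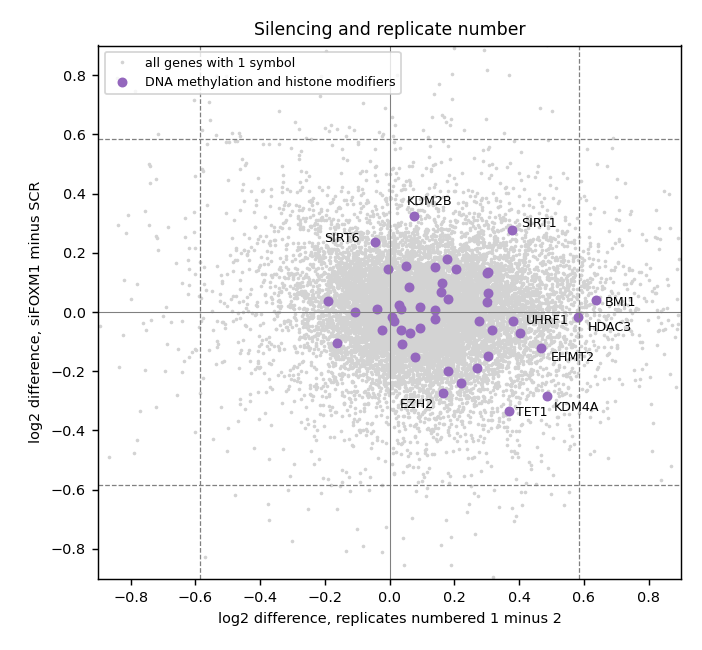
Log2 difference TE-1-siFOXM1 minus TE-1-SCR (y axis) against replicates numbered 1 minus replicates numbered 2 (x axis) for the 47 genes (purple) and all genes with 1 symbol (grey, 93 genes beyond the axis limit of 0.9 not drawn). Dashed lines mark 1.5-fold; 40 of the 47 genes lie right of 0, and BMI1 alone lies beyond a dashed line.

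The comparison was extended to 130 further genes of the same complexes and enzyme families, of which 101 were measured under 1 symbol. None of them was 1.5-fold higher and none 1.5-fold lower after silencing, against 1.01% of all genes in either direction. Their median difference was 0.05, with 61 higher (51% of all genes) and 40 lower, but without TE-1-siFOXM1 replicate 1 or TE-1-SCR replicate 2 the median was -0.05 or -0.07, and 0.10 or 0.08 without the other 2 arrays. The groups did not overlap for 22 of the 101 genes, against 27.3% of all genes, with 15 higher (13.5% of all genes) and 7 lower (13.8%). An unadjusted p under 0.05 by limma was found for 1 of the 101 genes, against 1.83% of all genes. By list, the median ran from -0.03 for the PRC1 subunits and for the COMPASS subunits with further H3 lysine 4 methyltransferases to 0.12 for the PRC2 partners. In the list of heterochromatin proteins and other lysine or arginine methyltransferases 10 of 11 genes had a positive difference, but without single arrays the count was 6 of 11 (without TE-1-siFOXM1 replicate 1) to 10 of 11, and 7 of 11 without TE-1-SCR replicate 2.

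TDG, a glycosylase that removes the oxidized bases made by TET enzymes, had the largest difference of the further genes. It was at 9.37 and 8.80 after silencing and at 8.54 and 8.59 in the controls. Both silenced arrays were above both controls, but replicate 1 was much the higher, and the difference of 0.52 (95% interval -0.06 to 1.10) was 0.24 without that array. PRMT6, an arginine methyltransferase of histone H3, was at 7.78 and 7.31 against 7.27 and 6.82, with a difference of 0.49 (95% interval -0.14 to 1.13). Its groups barely separated, and its differences were 0.50 between replicates numbered 1 and 0.48 between those numbered 2. SETD7, a monomethyltransferase of H3 lysine 4, is named, after its values were seen, as the gene with an unadjusted p under 0.05 by limma (its adjusted p was 1). It was at 8.88 and 8.78 against 8.35 and 8.33, with a difference of 0.49 (95% interval 0.14 to 0.84), equal to 1.41-fold. Its replicates were close together in each group and far apart between groups. The most negative differences were those of the lysine methyltransferase SMYD3, at 6.63 and 6.56 against 7.03 and 6.73 (difference -0.29, 95% interval -0.71 to 0.14), and of the SWI/SNF subunit SMARCD3, at 7.62 and 7.71 against 7.98 and 7.84 (difference -0.24, 95% interval -0.61 to 0.12). In both genes the silenced arrays were below both controls.

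**Figure D4:**
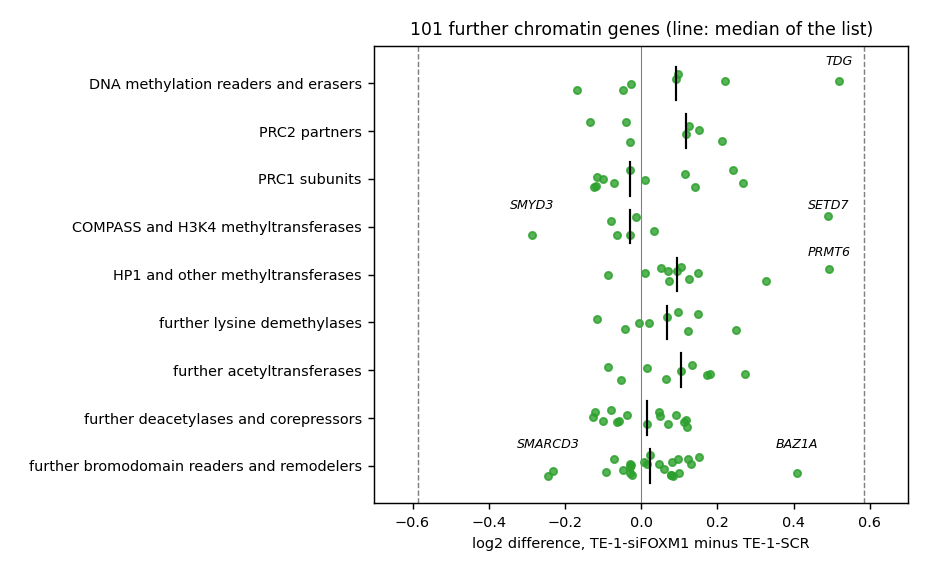
Log2 difference TE-1-siFOXM1 minus TE-1-SCR (x axis) for the 101 further genes in 9 lists (y axis, spread vertically for legibility); points are genes, black lines list medians and dashed lines 1.5-fold. No point passes a dashed line, and TDG lies nearest to it at 0.52.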

How the data were processed

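Total RNA of the 4 TE-1 samples was labelled and hybridized to Affymetrix arrays. The authors normalized the arrays by RMA and deposited log2 expression values for 22011 probe sets. Expression Console of Affymetrix and the build hg18 are listed, without versions, in the submitters' processing notes. The sources used here do not give which arrays were run through RMA jointly. RMA brings array distributions closer together, which can reduce a shift shared by most genes. The deposited values were still not equal in distribution, with array medians from 7.54 to 7.63. For arrays, their number limits the precision. Groups and replicate numbers came from the sample titles. Of the probe sets, 14432 carried 1 symbol in the platform annotation, and all 47 measured genes matched current RefSeq gene IDs, which were used for names and promoter letters only.

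Differences were tested with limma 3.58.1 in R 4.3.3 on all probe sets, without the replicate number as a term, and adjusted by the Benjamini-Hochberg method. The moderated test had 4.87 degrees of freedom. The calculation was also run on simulated data with known changes. The simulated arrays held no offset between replicate numbers, so that run says nothing about intervals under such an offset. The genes and lists were chosen by role, with earlier results of these data known. Named in full are the 5 largest increases and decreases, the extremes of level, the 3 largest differences between replicate numbers, DNMT1, UHRF1, EZH2, SUV39H1 and DNMT3B, and the 2 largest increases and decreases of the further genes. Other genes given in full (DNMT3A, TET2, EZH1 and SETD7) were chosen after their values were seen. The alternatives were centring, quantile normalization, a filter at the median level, averaging the probe sets of a gene, an intensity trend with robust estimation, linear means, a 2-fold criterion, the replicate number as a block, and leaving out each array, where a lone array is assumed to vary like the other group.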

Additional observations from a re-analysis of the deposited data

How the results depend on the processing

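The count of 0 genes past 1.5-fold and past an adjusted p of 0.05 was found under every alternative, except that leaving out single arrays gave 0 to 1 of the 47 genes at 1.5-fold lower (KDM4A, without TE-1-SCR replicate 2) and 0 to 2 of the further genes at 1.5-fold higher. These were TDG at 0.80 and PRMT6 at 0.73 without TE-1-siFOXM1 replicate 2, PRMT6 at 0.72 without TE-1-SCR replicate 1, and HELLS, a remodeler named here after its value was seen, at 0.59 without TE-1-SCR replicate 2. The number of genes without overlap was 14 in the comparison of all arrays and 26 to 34 when an array was left out. There 1 array against 2 overlaps less often by construction. No share of all genes is given here for those settings, so the 26 to 34 do not set the 47 genes apart. The median difference between replicate numbers, 0.16, was 0.0196 after quantile normalization. The difference of FOXM1 was -2.38 to -1.58 without single arrays.

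With the replicate block in limma, 0 of the 47 genes passed an adjusted p of 0.05 (lowest adjusted p 0.697). An unadjusted p under 0.05 was found for 1 gene (TET1), and 43 of 47 intervals lay within 1.5-fold, beside 30 without the block. The shares over all genes with the block are not given here, so these counts do not set the 47 genes apart. Deviations of same-numbered arrays correlated with r = 0.336 across probe sets, but with only 2 pairs the numbers were not taken to pair the samples. Quantile normalization (EHMT1, SUV39H2 and SUZ12) or linear means (KMT2D) turned the sign of 4 of the 47 differences, none above 0.01 in size, and leaving out single arrays turned it for 30, so that only 17 kept their sign throughout. The 17 included EZH2 (-0.36 to -0.19), KDM2B (0.20 to 0.45), TET1 (-0.54 to -0.13) and SIRT1 (0.08 to 0.47). How many of all genes kept their sign is not given here, so a kept sign does not set these genes apart. With 2 arrays a group, no difference of the 47 genes passed an adjusted p of 0.05 by limma.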
